A study of Mus musculus with 6 samples.

Results

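The cytochrome P450 genes measured here are the mouse genes whose array name is Cyp followed by a family number, a subfamily letter and a gene number, pseudogenes left out. The array named 93 such genes with 116 probes, of 31689 genes and transcripts in all. Of these, 63 had a probe called well above background by the scanner software on at least 1 of the 6 arrays and were kept. The 63 were divided by where each gene is mainly expressed, from textbook knowledge: 34 liver-type, 10 mucosal (gut, lung or skin epithelium) and 19 other members. The remaining 30 genes stayed below that call throughout, with highest scaled signals between 2.72 and 11.9 units.

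The arrays measured RNA from the mucosal layer of the glandular stomach, freed of the muscle wall, in C57BL/6J mice that were wild type or A4gnt-null and aged 5, 10 or 50 weeks. A4gnt encodes the glycosyltransferase that adds terminal alpha-linked N-acetylglucosamine to the mucin of gastric glands; the labels do not give the deleted part, the sex of the mice or any treatment. Each genotype and age was 1 mouse on 1 array, so a difference at a single age has no replicate check. The 3 wild-type arrays lay on 1 slide and the 3 null arrays on another, so slide and genotype cannot be told apart.

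Cytochromes P450 are heme enzymes, most of them in the membrane of the endoplasmic reticulum, that insert an oxygen atom into their substrate with electrons from a reductase. Families numbered low in the nomenclature oxidise drugs, plant compounds and other foreign chemicals, the CYP2J and CYP4 enzymes act mainly on fatty acids and eicosanoids, and others make or break down steroid hormones, bile acids, vitamin D and retinoic acid. Liver carries the largest set, while gut epithelium expresses its own smaller set at the surface that meets food and luminal toxins.

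Signals below are in scaled units, in which each array's 75th percentile was set to 300 units; they compare 1 probe across arrays and do not rank genes. A4gnt itself was 193 to 274 units on the wild-type arrays and 1.57 to 2.73 units, not above background, on the null arrays. On each array 54.8% to 59.18% of 43020 spots were above background. Markers of gastric cells were present: all 12 parietal cell, 9 chief cell, 7 gland mucous cell and 6 surface mucous cell genes on the array were above background on at least 1 array. The mice also differed in these markers. At all 3 ages the null mouse was lower in 11 of the 12 genes of parietal cells (median log2 difference -1.01), and 6 of 7 gland mucous cell genes were higher at all 3 ages (median 0.92). Of all 17860 genes tested, 26.1% were lower and 26.1% higher at all 3 ages. These shares stand beside each such count of tested genes from a list below.

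The array reads each gene through 60-base probes placed on mm9 coordinates by its design. The probes of the members on which the results turn are shown here 5′ to 3′, as the first 30 bases where the probe has no open reading frame or may lie past the coding sequence, and whole otherwise.
Cyp2s1, chr7:26587495-26587554, minus strand: tagctgacctctttgtgacttgaaggttcc
Cyp26b1, chr6:84521952-84522011, minus strand: gttcgtgtgtctcgttgtggtagcattaat
Cyp4f18, chr8:74512381-74512440, minus strand: actctcctatccatccacccacctgtgcct
Cyp2d10, chr15:82233276-82233335, minus strand: ttccagtcatggtaggcagggcaggctgag
Cyp17a1, chr19:46742594-46743207, minus strand, a probe whose interval is longer than its 60 bases: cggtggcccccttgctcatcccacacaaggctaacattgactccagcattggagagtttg
No mm9 gene annotation was used here, so exon and UTR positions are not given.

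Of the 63 members, 49 were above background on at least 3 arrays and entered the limma fit of genotype over the 3 ages. None of the 49 reached an adjusted p of 0.05 by limma, as for all 17860 genes tested (0.0% called), where the smallest adjusted p was 0.0922. At an unadjusted limma p of 0.05, 15 of 49 members (30.6%) were lower in the null mice against 12.6% of all genes, and 4 (8.16%) were higher against 11% of all genes. With another background correction, normexp, 2 members passed: Cyp2s1 (log2 difference -1.01, limma adjusted p = 0.0405) and Cyp4f18 (-0.88, limma adjusted p = 0.0424). Since there are 3 arrays per genotype, the number of arrays limits the precision, and the spread behind each standard error is between mice of different ages after the age term.

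The direction across ages was uneven among the 39 members above background on all 6 arrays. The null mouse was lower at all 3 ages for 16 of 39 (41.0%; 26.3% of all genes) and higher at all 3 ages for 5 (12.8%; 27.0% of all genes). For 10 members (25.6%; 11.1% of all genes) every null array lay below every wild-type array, and for 0 (13.1% of all genes) every null array lay above. Scaling on each array's median shifted the difference of all genes by 0.13 on the log2 scale; the split of members was then 12 lower and 7 higher at all 3 ages, beside 15.7% and 37.3% of all genes, and the same 10 members did not overlap. The 10 were Cyp2s1, 5 liver-type members (Cyp2d10, Cyp2d11, Cyp2d12, Cyp4a10 and Cyp4a31) and 4 CYP4 members of the other class (Cyp4f13, Cyp4f17, Cyp4f18 and Cyp4v3).

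**Figure D1:**
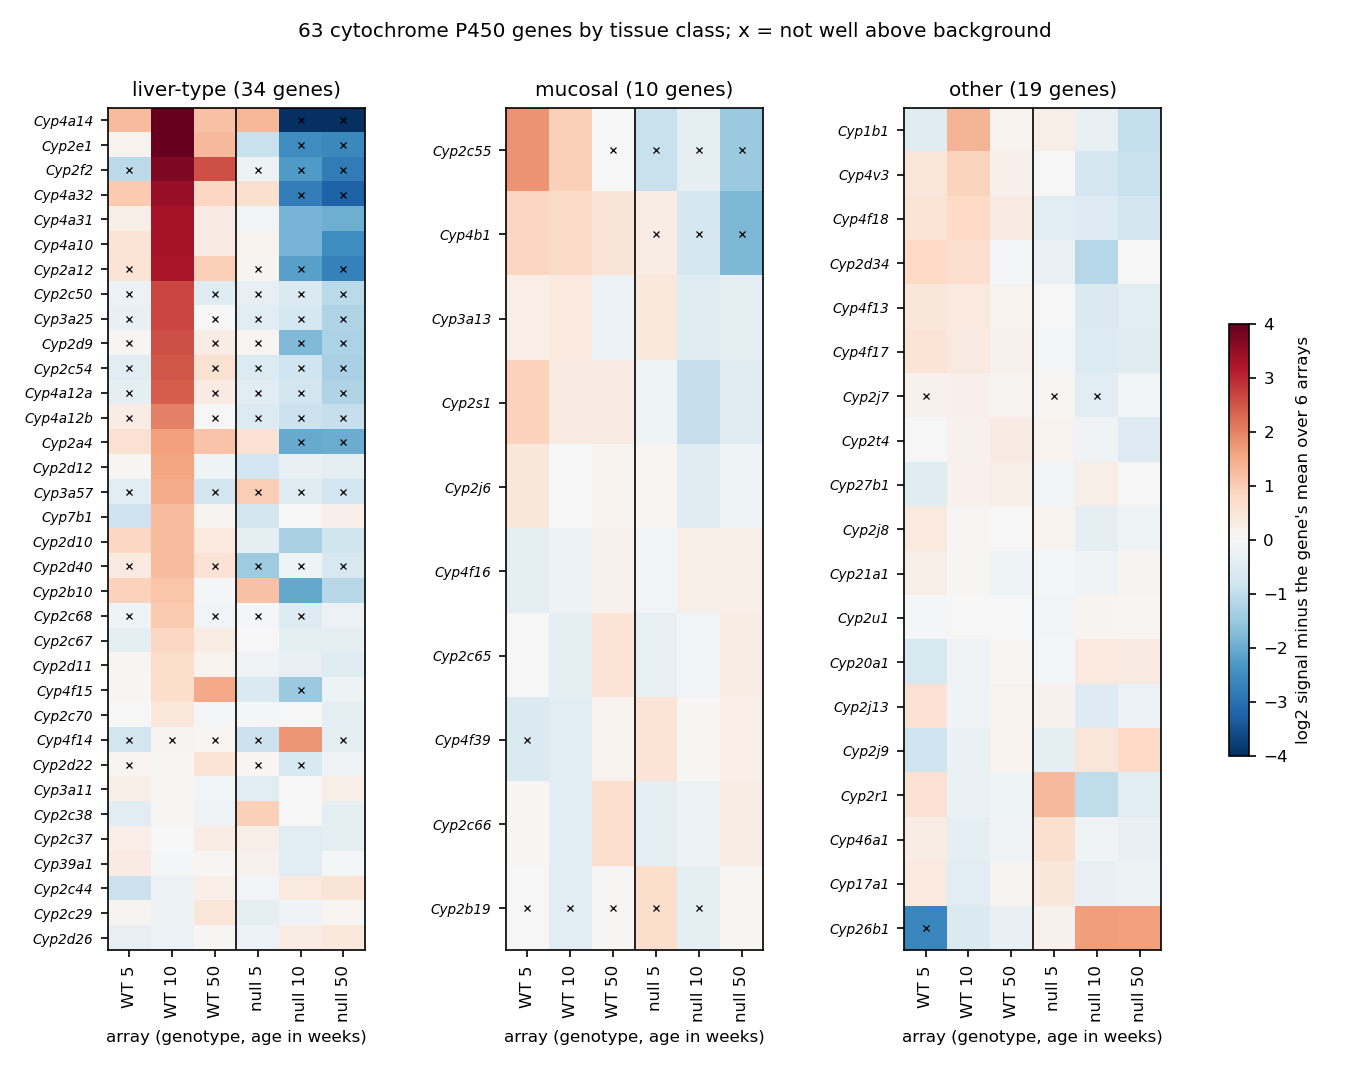
Log2 signal of the 63 members on each array (columns, genotype and age in weeks; WT = wild type) minus the gene's mean over the 6 arrays, in 3 panels by tissue class and ordered by the wild-type array of 10 weeks; colours stop at 4 either way and a cross marks an array not well above background. The wild-type array of 10 weeks is the highest of the 6 for 23 of 34 liver-type members and for 0 of 10 mucosal members. Of the 23, 8 were kept through that array alone.

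The medians of the 3 classes differed mainly in the liver-type members. Over the 3 ages the median log2 difference, null minus wild type, was -0.57 over 22 liver-type, -0.25 over 8 mucosal and -0.29 over 19 other members tested, against -0.03 over all genes. Members not above background on every array weigh in the first of these: over the 16 liver-type members above background on all 6 arrays the median was -0.37. Among members above background on both arrays of an age, the liver-type median was -0.13 at 5 weeks, -0.74 at 10 weeks and -0.52 at 50 weeks. The mucosal median was -0.37, 0.22 and -0.25 at the same ages, and that of the other members -0.06, -0.35 and -0.26.

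**Figure D2:**
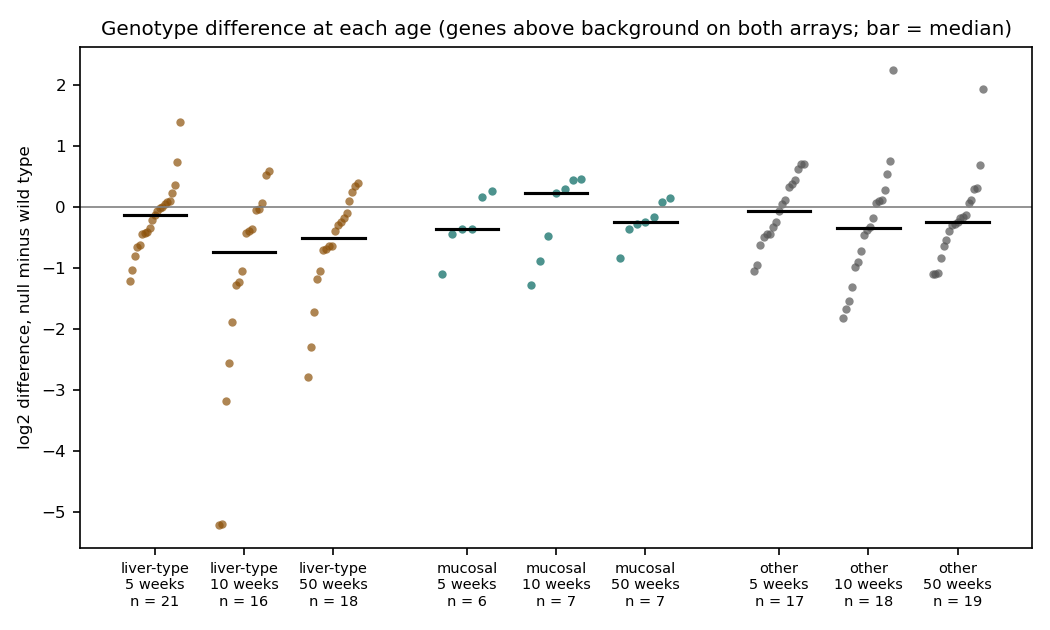
Log2 difference of the null from the wild-type mouse at each age (vertical axis), 1 point per member above background on both arrays, by tissue class and age with n under each column; the bar is the median. The liver-type members spread down to -5.21 at 10 weeks, while the mucosal members stay between -1.28 and 0.45 at that age.

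At 5 weeks, 4 of 44 members above background on both arrays were at least 2-fold lower in the null mouse (9.09%; 4.85% of all genes): Cyp2d10, Cyp2d34, Cyp2e1 and Cyp2s1. Only Cyp2c38 of the 44 was at least 2-fold higher (2.27%; 3.56% of all genes). At 10 weeks, 13 of 41 were at least 2-fold lower (31.7%; 5.26% of all genes), 8 of them liver-type, and only Cyp26b1 was at least 2-fold higher (2.44%; 4.29% of all genes). At 50 weeks, 8 of 44 were at least 2-fold lower (18.2%; 4.32% of all genes), and again Cyp26b1 alone was at least 2-fold higher (2.27%; 2.0% of all genes). These counts moved with the scaling: on the median scale the members lower by 2-fold or more numbered 2 at 5 weeks and 3 at 50 weeks.

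Among the mucosal members, Cyp2s1 showed the clearest separation of the genotypes. Cyp2s1 is an epithelial enzyme outside the liver that is induced through the aryl hydrocarbon receptor. Its signal was 73247, 49481 and 49829 units in the wild-type mice of 5, 10 and 50 weeks and 34283, 20370 and 27762 units in the null mice. All 3 null arrays lay below all 3 wild-type arrays, and the null mouse was 2.14-fold, 2.43-fold and 1.80-fold lower at the successive ages. The limma difference over ages was -1.07 ± 0.14 (SE, 3 arrays per genotype; adjusted p = 0.110). Leaving out either mouse of 1 age at a time gave -1.19 to -0.97.

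The mucosal members Cyp4b1 and Cyp2c55 were above background only in wild-type mice. Cyp4b1, a fatty acid hydroxylase of lung and other epithelia that also activates plant furans, was 16.1, 15.3 and 12.9 units in the wild-type mice and 10.9, 5.59 and 2.58 units in the null mice, above background in all 3 wild-type mice and in no null mouse. Its null signal was thus lower by at least 1.27-fold, 1.44-fold and 1.71-fold at the successive ages. Here a bound sets the lone measured signal against the lowest signal called above background on the other array, or the probe's own if higher. Cyp2c55, an arachidonic acid epoxygenase of the colon, was 35.5, 19.9 and 10.4 units in the wild-type mice, above background at 5 and 10 weeks, and 3.67 to 7.72 units, not above background, in the null mice. At 5 weeks its null signal was lower by 2.81-fold or more, at 10 weeks by 1.87-fold or more; it was too dim for the limma test.

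Other mucosal members had smaller differences. Cyp2c65, an arachidonic acid-metabolising enzyme of stomach and colon, was 3395, 2530 and 4884 units in the wild-type mice and 2642, 3099 and 4113 units in the null mice. The groups overlapped, and the limma difference was -0.11 ± 0.18 (SE, adjusted p = 0.737), with its sign turned to 0.02 on the median scale and to 0.02 without the arrays of 5 weeks. Its near neighbour Cyp2c66 gave a like picture (-0.19 ± 0.18), but its probe also lists the transcript of Cyp2c65 and is no separate reading. Cyp3a13, the main CYP3A enzyme of mouse gut, was 1427, 1570 and 1016 units in the wild-type and 1590, 852 and 904 units in the null mice, overlapping groups with a limma difference of -0.30 ± 0.24 (SE, adjusted p = 0.480). Cyp2j6, an intestinal epoxygenase, was lower in the null mouse at all 3 ages by 1.29-fold, 1.40-fold and 1.22-fold. Cyp4f39, an omega-hydroxylase of very long fatty acids in skin, was higher, by 2.16-fold or more at 5 weeks, 1.37-fold at 10 weeks and 1.1-fold at 50 weeks. Cyp2c66, Cyp2j6 and Cyp4f39 were chosen after their values were seen.

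**Figure D3:**
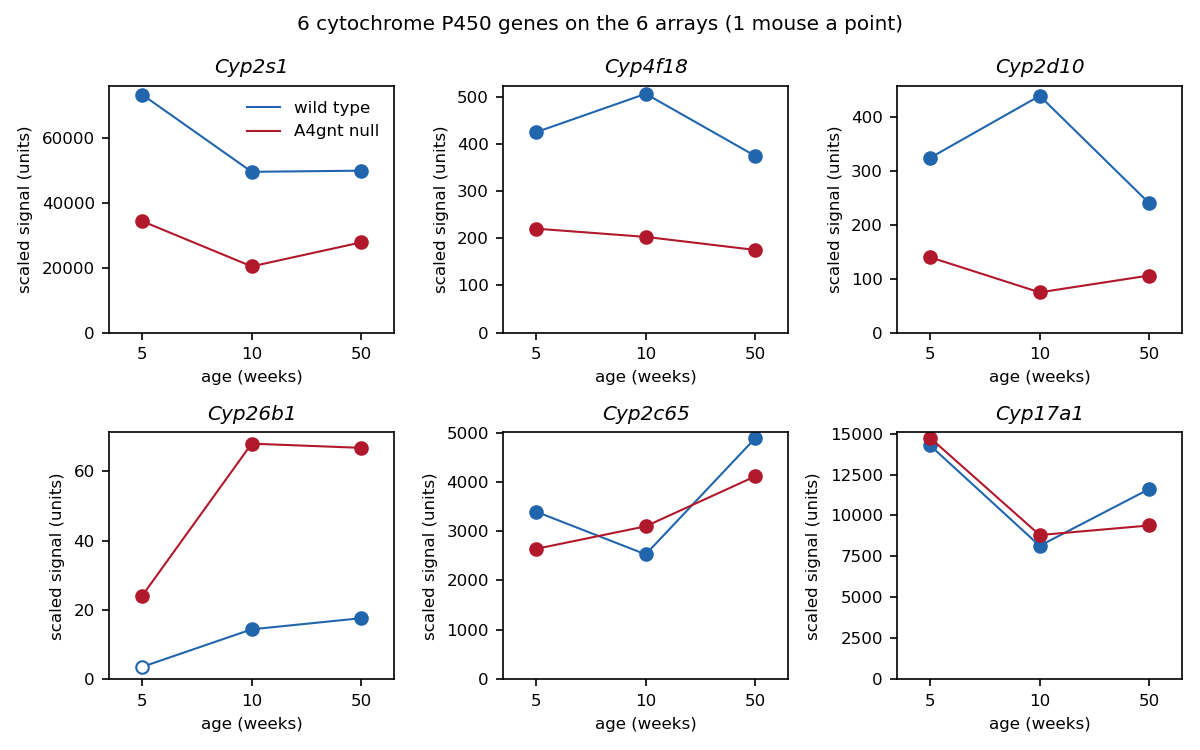
Scaled signal (vertical axes, each from 0) against age in weeks for 6 members, with 1 point per mouse joined within a genotype, wild type in blue and A4gnt null in red; the open point is not well above background. The genotypes do not overlap for Cyp2s1, Cyp4f18, Cyp2d10 and Cyp26b1, and overlap for Cyp2c65 and Cyp17a1.

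The enzymes of fatty acids and eicosanoids tested were 18: CYP4 and CYP2J members and Cyp2u1. Of these, 13 of 18 were lower in the null mouse at all 3 ages and 3 higher. Of all 17860 genes tested, 4668 (26.1%) were lower and 4668 (26.1%) higher. Cyp2u1, whose probe is described further on, did not keep 1 direction. The median log2 difference of the 18 was -0.69, and -0.53 over the 12 of them above background on all 6 arrays. The 18 include Cyp4a10, Cyp4a14, Cyp4a31 and Cyp4a32, liver-type members that, like the hepatocyte markers described further on, were highest in the wild-type mouse of 10 weeks. Without these 4, 10 of 14 were lower and 3 higher at all 3 ages, with a median of -0.39. Cyp4f18, which hydroxylates leukotriene B4 and is known from neutrophils, was 425, 507 and 375 units in the wild-type mice and 221, 203 and 175 units in the null mice. The groups did not overlap, and the limma difference was -1.12 ± 0.13 (SE, adjusted p = 0.110). A second Cyp4f18 probe, 1 base away and so no separate reading, gave -0.83. Cyp4v3, a fatty acid omega-hydroxylase whose human counterpart is mutated in a crystalline retinal dystrophy, was 245, 324 and 201 units against 174, 111 and 95 units, also without overlap (-1.04 ± 0.24 SE, limma adjusted p = 0.152).

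The other CYP4F members went both ways: of 6 tested, Cyp4f18 included, 4 were lower and 2 higher at all 3 ages. Cyp4f15, an eicosanoid hydroxylase, was 31.4, 50.5 and 88.3 units in the wild-type mice and 20.4, 11.1 and 26.7 units in the null mice, the 10-week null array not being above background. Every null array lay below every wild-type array (-1.51 ± 0.34 SE, limma adjusted p = 0.149; -0.44 with normexp). Cyp4f17 (-0.72 ± 0.12) and Cyp4f13 (-0.66 ± 0.16), named after their values were seen, did not overlap either, with limma adjusted p-values of 0.136 and 0.156. Cyp4f16 was higher, by 1.19-fold, 1.35-fold and 1.06-fold at the successive ages (0.26 ± 0.13 SE), as was Cyp4f39, described above; Cyp4f16 was chosen after its values were seen. Cyp2j9, a CYP2J member, was also higher at all 3 ages (0.62 ± 0.13 SE, limma adjusted p = 0.144), by 1.36-fold, 1.67-fold and 1.60-fold, though its groups overlapped. It too was chosen after its values were seen.

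Cyp26b1 was the member with the highest positive difference. It encodes a hydroxylase that clears retinoic acid, the active form of vitamin A. Its signal was 3.53 units (not above background), 14.4 and 17.6 units in the wild-type mice of 5, 10 and 50 weeks and 24.1, 68.0 and 66.8 units in the null mice. Every null array lay above every wild-type array: the null signal was higher by 1.79-fold or more at 5 weeks, 4.73-fold at 10 weeks and 3.80-fold at 50 weeks. The limma difference was 2.31 ± 0.20 (SE, adjusted p = 0.0967). These wild-type signals lie near the background, and with normexp, which shrinks dim signals, the difference was 0.66. The other retinoic acid hydroxylases, Cyp26a1 and Cyp26c1, were not above background on any array.

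The genes around Cyp26b1 in retinoid handling differed in both directions. Of 12 retinoid genes tested, Cyp26b1 among them, 6 were lower and 2 higher at all 3 ages, with a median log2 difference of -0.43 and 0 passing the limma threshold. The other gene higher at all 3 ages was Aldh1a3, which makes retinoic acid from retinal: 40.5, 262 and 118 units in the wild-type mice and 639, 435 and 984 units in the null mice (2.59 ± 0.68 SE, limma adjusted p = 0.166). Rdh7, a retinol dehydrogenase, was 2021, 2025 and 1024 units against 1154, 399 and 203 units (-1.83 ± 0.37 SE). Rbp2, the intestinal retinol-binding protein, was 484, 715 and 904 units against 230, 289 and 252 units (-1.41 ± 0.19 SE). Beside Cyp26b1, 6 of 8 fibroblast markers were higher in the null mouse at all 3 ages, against 26.1% of all genes tested. Their summed signal was 4022 to 6474 units in the wild-type and 6341 to 8307 units in the null mice. These ranges overlap, and at 5 weeks the sums were 6474 and 6605 units. The part of these markers in the level of Cyp26b1 was not tested. In these whole-tissue samples, fewer cells of a type and less RNA per cell cannot be told apart.

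Cyp1b1, which oxidises oestrogens and aromatic hydrocarbons outside the liver, did not keep 1 direction. Its signal was 21.1, 75.5 and 32.3 units in the wild-type mice and 34.2, 23.8 and 15.2 units in the null mice, higher in the null mouse at 5 weeks and lower at 10 and 50 weeks (-0.69 ± 0.51 SE, limma adjusted p = 0.446). Cyp1a1 and Cyp1a2, the classical targets of the aryl hydrocarbon receptor, were not above background on any array. The receptor gene Ahr was level, at 282 to 326 units over the 6 arrays. Of 6 aryl hydrocarbon receptor targets tested, 2 were lower at all 3 ages: Cyp2s1 and Aldh3a1, an aldehyde dehydrogenase, at 139750, 99485 and 84098 units against 65186, 44423 and 52903 units (-0.98 ± 0.15 SE, limma adjusted p = 0.131). The other targets tested included Nqo1 (0.17 ± 0.32) and Tiparp (0.07 ± 0.12).

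The liver-type members were dominated by the wild-type mouse of 10 weeks. That array was the highest of the 6 for 23 of 34 liver-type members (67.6%), for 0 of 10 mucosal and for 4 of 19 other members, against 15% of all genes above background on at least 1 array. It was the only array above background for 8 of 63 members (12.7%; 2.38% of all genes), all 8 of them liver-type: Cyp2c50, Cyp2c54, Cyp2d9, Cyp2d40, Cyp3a25, Cyp3a57, Cyp4a12a and Cyp4a12b. It was at least 4 times every other array for 10 of 61 members (16.4%; 0.881% of all genes), again all liver-type. The 8 were kept through that array alone, so the keeping rule nearly fixed it as their highest. All 8 are among the 23, and some are among the 10. The shares of all genes fall under the same rule.

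Cyp2e1, which oxidises ethanol and small solvents in hepatocytes, was 58.1, 1221 and 130 units in the wild-type mice and 28.2, 9.31 and 8.75 units in the null mice, the last 2 not above background. The null signal was 2.06-fold lower at 5 weeks; the bounds at 10 and 50 weeks were at least 115-fold and 14.9-fold lower. The limma difference was -3.99 ± 1.21 (SE, adjusted p = 0.182), and -2.47 without the arrays of 10 weeks. A second probe for Cyp2e1, at chr7:147956922-147956981 on the plus strand, is shown whole because it repeats the pattern inside an open reading frame.
Cyp2e1, second probe: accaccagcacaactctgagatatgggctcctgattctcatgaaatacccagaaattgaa
It read 13.0, 212 and 29.5 units in the wild-type mice and 2.64 to 3.20 units in the null mice. Both probes thus had their highest signal in the wild-type mouse of 10 weeks.

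The CYP4A omega-hydroxylases, which start the breakdown of fatty acids in liver and kidney and are induced through PPAR-alpha, followed the same arrays. Cyp4a14 was 153, 2839 and 144 units in the wild-type mice and 158, 3.20 and 2.05 units in the null mice. The genotypes were level at 5 weeks (1.03-fold), and the bounds at 10 and 50 weeks put the null mice at least 267-fold and 19.1-fold lower (-5.29 ± 2.0 SE, limma adjusted p = 0.219; -3.05 without the arrays of 10 weeks). Cyp4a10 was 136, 936 and 116 units against 102, 25.3 and 16.7 units, or 1.33-fold, 37.0-fold and 6.94-fold lower in the null mice. Cyp4a31 was 93.0, 794 and 98.7 units against 73.2, 21.6 and 20.1 units, and Cyp4a32 46.4, 251 and 40.0 units against 34.5, 3.26 and 2.36 units. For Cyp4a32 the null arrays of 10 and 50 weeks were not above background, and the bounds were at least 23.6-fold and 5.32-fold lower.

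These genes are near copies. Among their probes, 1 of Cyp4a10 and 1 of Cyp4a31 align over their whole length and share 54 of 60 bases; they are shown with the 6 differing bases in capitals.
Cyp4a10, chr4:115198463-115198522, plus strand: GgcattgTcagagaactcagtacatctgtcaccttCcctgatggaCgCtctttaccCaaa
Cyp4a31, chr4:115243923-115243982, plus strand: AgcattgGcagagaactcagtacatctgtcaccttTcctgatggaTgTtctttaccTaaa
From the Cyp4a10 to the Cyp4a31 probe the substitutions are G1A, T8G, C36T, C46T, C48T and C57T, counted from the 5′ end. The values given above came from other, brighter probes of both genes, which are not shown. In the wild-type mouse of 10 weeks the shown probes read 94.2 units for Cyp4a10 and 49.7 units for Cyp4a31, each its highest signal of the 6 arrays. Reading of a near copy's RNA was not tested for any of these probes.

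Other liver-type enzymes of foreign compounds and steroids also had their highest signal in the wild-type mouse of 10 weeks. Cyp2f2, which activates naphthalene in lung and liver, was 5.18, 144 and 64.2 units in the wild-type mice and 1.55 to 9.26 units, not above background, in the null mice, lower by 13.5-fold or more at 10 weeks and 8.53-fold or more at 50 weeks. Cyp2a12, a hepatic steroid hydroxylase, was 15.7, 105 and 21.0 units against 11.8, 2.38 and 1.67 units, lower by 9.85-fold or more at 10 weeks. Cyp2a4, a steroid 15-alpha-hydroxylase, was 14.3, 29.4 and 20.7 units against 14.1, 2.33 and 2.35 units, the last 2 not above background (-2.27 ± 0.80 SE, limma adjusted p = 0.205). That estimate was -3.40 without the arrays of 5 weeks, -1.58 without those of 10 weeks and -0.34 with normexp. Cyp2d9, a testosterone hydroxylase of liver, was above background only on the wild-type array of 10 weeks, at 55 units, with the null mouse of that age lower by 5.16-fold or more.

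The liver-type members Cyp2d10 and Cyp2b10 were well above background on all 6 arrays. Cyp2d10, of the subfamily that oxidises many amine drugs, was 325, 440.0 and 241 units in the wild-type mice and 140.0, 74.8 and 106 units in the null mice. It too was highest in the wild-type mouse of 10 weeks. Its groups did not overlap, and the null mouse was 2.32-fold lower at 5 weeks, 5.89-fold at 10 weeks and 2.27-fold at 50 weeks (-1.65 ± 0.33 SE, limma adjusted p = 0.144). Cyp2b10, the phenobarbital-induced enzyme regulated through the receptor CAR, was 1571, 1780 and 792 units against 1831, 197 and 383 units. Its highest signal was in the null mouse of 5 weeks. It was 1.17-fold higher in the null mouse at 5 weeks, 9.03-fold lower at 10 weeks and 2.07-fold lower at 50 weeks (-1.33 ± 0.70 SE, limma adjusted p = 0.312; -0.41 without the arrays of 10 weeks). Cyp2c44 (0.52 ± 0.15), an epoxygenase, and Cyp2d26 (0.33 ± 0.14) were the liver-type members higher in the null mouse at all 3 ages; both were named after their values were seen.

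Markers of hepatocytes followed the same arrays as these members. Of 33 hepatocyte genes, 31 were on the array and above background on at least 1 array; 31 of them were above background in the wild-type mouse of 10 weeks, 25 and 27 in the wild-type mice of 5 and 50 weeks, and 27, 19 and 19 in the null mice of 5, 10 and 50 weeks. Their summed signal was 14378, 57817 and 14166 units in the wild-type mice and 13615, 6586 and 4939 units in the null mice. The wild-type array of 10 weeks was the highest for 26 of 31 (15% of all genes) and at least 4 times the rest for 16 (0.881% of all genes). Alb, the serum albumin gene, was 276, 2877 and 409 units against 392, 36 and 19 units. Cyp7a1 and Cyp8b1, the hepatic enzymes of bile acid synthesis, and Cyp1a2 were below the background call on all 6 arrays. The part of hepatocyte RNA in the liver-type differences was not tested.

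Some markers of squamous epithelium, as in the forestomach, were also high in both older wild-type mice, while others on the list were not. Krt5, a keratin of its basal layer, was 21.5, 395 and 634 units in the wild-type mice and 19.7, 18.9 and 27.9 units in the null mice. Lor, a protein of its cornified layer, was 26.3, 1038 and 2826 units against 54.3, 37.5 and 25.0 units. The markers Krt1, Krt14 and Sprr3 were above background on those 2 wild-type arrays alone. Ivl went the other way, at 4.53, 42.8 and 18.3 units in the wild-type mice and 189, 113 and 73.2 units in the null mice. Krt13, Krt10 and Trp63 had limma differences of 0.10, 0.07 and -0.33. Krt4 was above background only in the wild-type mouse of 50 weeks, and Dsg3 on no array. The summed signal of 10 pancreatic markers was 69663, 9413 and 18749 units in the wild-type mice of 5, 10 and 50 weeks and 40367, 5734 and 3035 units in the null mice, with a median log2 difference of -0.01 at 10 weeks and -5.39 at 50 weeks. The part of either marker list in the members' differences was not tested.

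**Figure D4:**
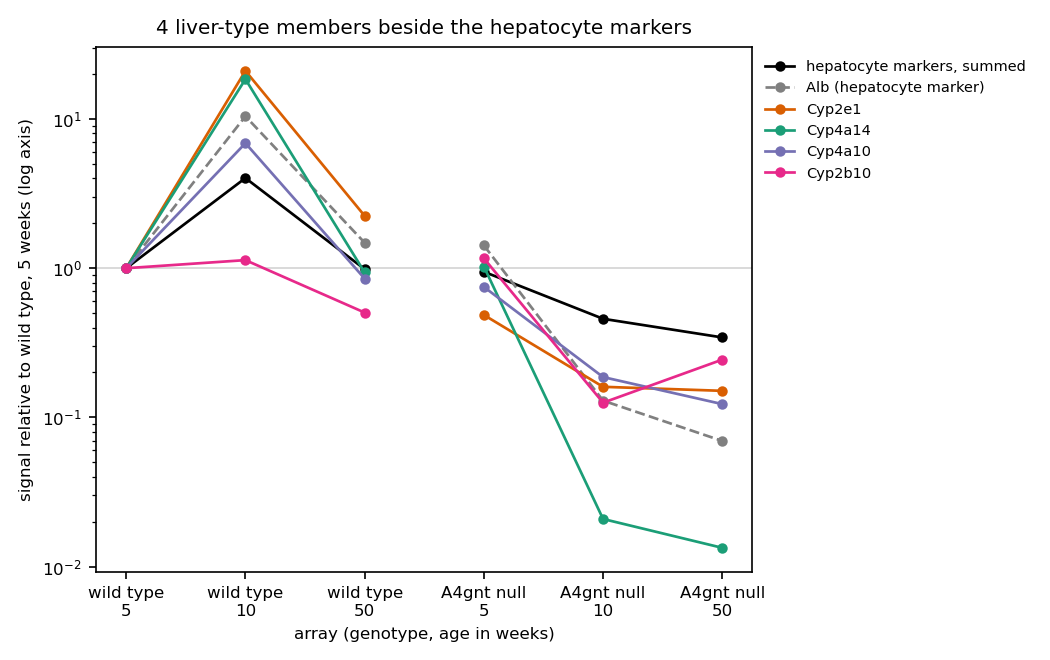
Signal of 4 liver-type members, of Alb and of the 31 hepatocyte markers summed, each divided by its own value in the wild-type mouse of 5 weeks (vertical axis, logarithmic), over the 6 arrays (horizontal axis, genotype and age in weeks). Each line except that of Cyp2b10 peaks at the wild-type array of 10 weeks, and all 6 lie lower in the null mice of 10 and 50 weeks than in the wild-type mice of those ages.

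On the arrays of 5 and of 50 weeks the median liver-type difference was smaller in size than at 10 weeks. Of 17 liver-type members above background on all 4 of these arrays, 10 were lower in the null mouse at both ages and 3 higher, beside 34.2% lower and 33.6% higher of 16112 genes. Their medians were -0.13 at 5 weeks and -0.39 at 50 weeks. This filter leaves out members not above background in the null mouse of 50 weeks, such as Cyp2e1 and Cyp4a14. Over the 22 liver-type members tested, dim signals included, the medians were -0.10, -1.26 and -0.67 at 5, 10 and 50 weeks. At 5 weeks the summed hepatocyte signal was 14378 units in the wild-type and 13615 units in the null mouse. That sum leans on bright genes such as Apoa1, at 6248 and 4224 units. The median log2 difference of the 26 hepatocyte genes tested was 0.33 at this age, higher in the null mouse. At the same age Cyp4a14 and Cyp2a4 were level (1.03-fold and 1.01-fold), while Cyp2d10 was 2.32-fold and Cyp2e1 2.06-fold lower in the null mouse.

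**Figure D5:**
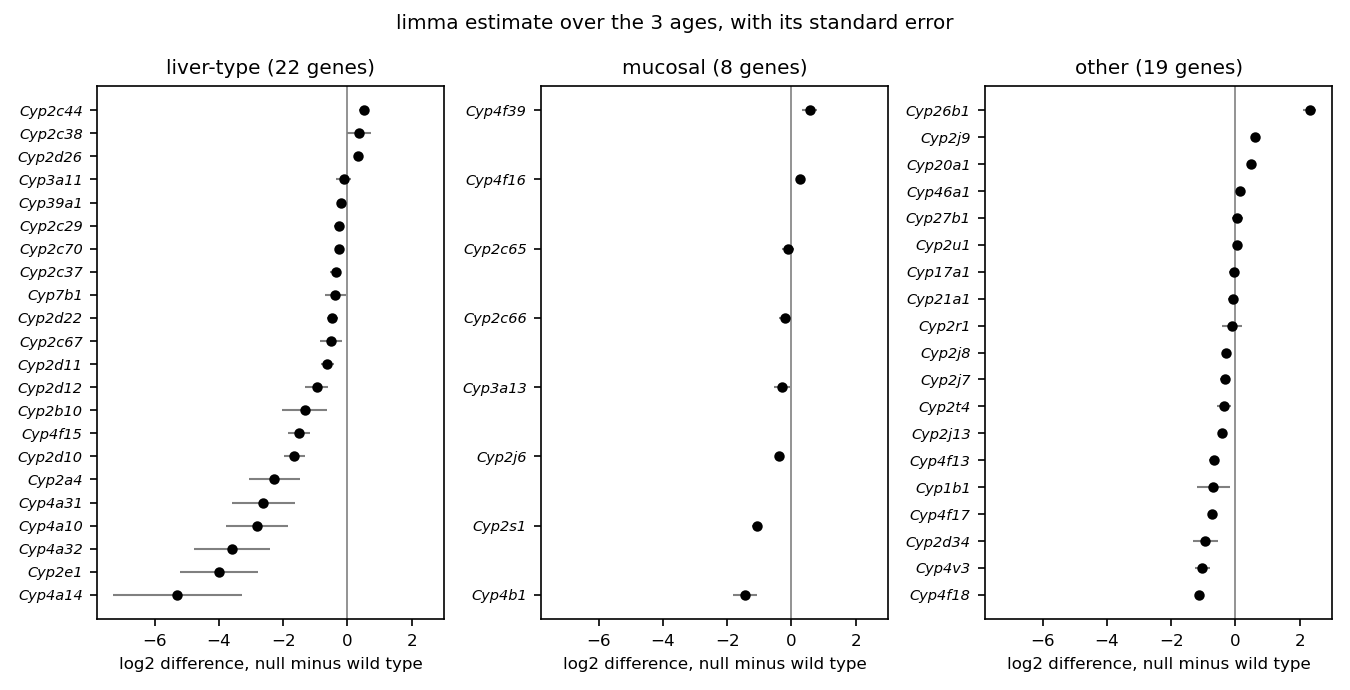
limma estimate of the log2 difference over the 3 ages, null minus wild type (horizontal axis), with its standard error, for the 49 members tested, in 3 panels by tissue class. The points with the widest error, down to Cyp4a14 at -5.29, are liver-type members, while Cyp2s1 at -1.07 and Cyp26b1 at 2.31 have errors of 0.14 and 0.20.

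Most steroid, sterol and vitamin D members had small average differences over the ages. Cyp17a1, the steroid 17-alpha-hydroxylase best known from gonads, was 14272, 8143 and 11611 units in the wild-type mice and 14737, 8801 and 9385 units in the null mice. The genotypes overlapped, with a limma difference of -0.05 ± 0.14 (SE, adjusted p = 0.847). Of the other enzymes of steroid-making cells, Cyp11a1, Cyp11b1, Cyp11b2 and Cyp19a1 were not above background on any array, and Cyp21a1 was 46.6 to 62.5 units. Cyp27b1, which activates vitamin D in kidney, was 20.4 to 33.6 units over the 6 arrays (0.06 ± 0.17), and Cyp24a1 and Cyp27a1 were not above background. Cyp39a1 (-0.20 ± 0.12), Cyp46a1 (0.15 ± 0.15) and Cyp7b1 (-0.37 ± 0.34), which hydroxylate cholesterol or its oxidised forms, had overlapping groups. At 10 weeks Cyp7b1 was 71.1 units in the wild-type and 29.1 units in the null mouse, 2.44-fold lower.

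Cyp20a1, an enzyme without a settled substrate and so in none of these groups, was higher in the null mouse at all 3 ages. It was 65.7, 93.2 and 107.4 units in the wild-type mice against 101, 135 and 132 units (0.48 ± 0.13 SE, limma adjusted p = 0.166). Its groups overlapped. Cyp20a1 and the steroid, sterol and vitamin D members, Cyp11a1, Cyp24a1 and Cyp27a1 apart, were named after their values were seen.

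Readings of some members need care at the probe. Cyp2u1, a hydroxylase of long-chain fatty acids, read 20539 to 23580 units on all 6 arrays through a probe at chr3:130996343-130996402 that holds a 31-base repeat of TG. Bases 13 to 42 are shown, with the part of the repeat that they hold in capitals.
Cyp2u1, minus strand: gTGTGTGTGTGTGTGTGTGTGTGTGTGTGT
Such a repeat occurs in 22 of 39429 probes (0.0558%), and the genes read by them had a median mean signal of 14692 units, against 24.5 over all genes. The other Cyp2u1 probe read 6.12 to 34.2 units. For Cyp2r1, a vitamin D 25-hydroxylase, the brighter probe gave -0.10 and the other 0.47 over the 3 ages; by the brighter, the null mouse was 1.63-fold higher at 5 weeks and 1.65-fold lower at 10 weeks. The other 6 of 7 members with several usable probes agreed in sign between probes, but not always in size. For Cyp3a11 the probe used gave -0.12 and the other -1.71, the latter highest in the wild-type mouse of 10 weeks, at 117 units. Cyp2u1, Cyp2r1 and Cyp3a11 were named after their values were seen.

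Age and its interplay with genotype gave no member past the limma threshold. For 10 against 5 weeks, 0 of 49 members had an adjusted p under 0.05 (0.0112% of all genes), and 13 had an unadjusted p under 0.05 (12.2% of all genes). For 50 against 5 weeks the counts were 0 (0.0112% of all genes) and 11 (19.1% of all genes), and for 50 against 10 weeks 0 (0.0% of all genes) and 2 (6.85% of all genes). Cyp26b1 differed between 10 and 5 weeks by 1.76 on the log2 scale over both genotypes (limma adjusted p = 0.388), and Cyp17a1 by -0.78 (limma adjusted p = 0.388). The value for Cyp26b1 rests in part on the wild-type signal of 5 weeks, 3.53 units, which was not above background. Cyp2j9, at 27.8, 39.9 and 52.9 units in the wild-type and 37.8, 66.8 and 84.6 units in the null mice, was highest at 50 weeks in both genotypes (1.05 above 5 weeks, limma adjusted p = 0.217). The trend of the genotype difference with the logarithm of age passed the adjusted limma threshold for 0 of 49 members (0.0% of all genes), and 2 had an unadjusted p under 0.05 (2.83% of all genes): Cyp2t4, and Cyp4b1, whose null signals were all below the background call.

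Of 10 electron donors and membrane partners tested, 2 were lower and 1 higher at all 3 ages, with a median of -0.06, which turned to 0.07 on the median scale (2 lower, 4 higher), and 0 passing the limma threshold. Por, the reductase that feeds the microsomal enzymes, was 10298, 9810 and 6407 units in the wild-type mice and 9636, 5746 and 6442 units in the null mice (-0.29 ± 0.20 SE). Of 18 xenobiotic and lipid receptors tested, 5 were lower and 4 higher at all 3 ages (median -0.07, 0 passing), and 2 and 6 on the median scale (median 0.06); Nr1i2, the receptor PXR, was lower at all 3 ages, most at 5 weeks (2.04-fold; over ages -0.57 ± 0.21 SE, limma adjusted p = 0.216), and Pparg higher (0.52 ± 0.15 SE, limma adjusted p = 0.175). Nr1i3, the receptor CAR, was 316, 126 and 214 units in the wild-type mice and 95.5, 227 and 134 units in the null mice: 3.31-fold lower at 5 weeks, 1.80-fold higher at 10 weeks and 1.60-fold lower at 50 weeks. Vdr, the vitamin D receptor, was 3.08-fold higher in the null mouse at 10 weeks. Nr1i3 and Vdr were named after their values were seen.

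Neighbouring enzymes of the same pathways differed in both directions. Of 7 P450 and epoxide enzymes with other names, 3 were lower and 3 higher at all 3 ages (median -0.49, 0 passing the limma threshold). The epoxide hydrolases Ephx2, which opens fatty acid epoxides, and Ephx1, which opens those of foreign compounds, were lower by 1.0 ± 0.31 and 0.87 ± 0.15 on the log2 scale. Cyp51, the sterol demethylase of cholesterol synthesis, was 122, 169 and 218 units in the wild-type and 192, 253 and 309 units in the null mice (0.58 ± 0.11 SE, limma adjusted p = 0.141). Tbxas1, the thromboxane synthase of platelets and macrophages, was also higher (0.93 ± 0.19 SE, limma adjusted p = 0.144).

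Promoters from 250 bases before to 50 bases after the gene start, from RefSeq on GRCm38.p6, matched 46 of the 63 members. The core of the aryl hydrocarbon receptor element, GCGTG on either strand, occurred in 12 of 46 (26.1%) against 32.4% of 32851 promoters, among them those of Cyp1b1, Cyp2b10 and Cyp4v3 and not that of Cyp2s1. The half-site AGGTCA on either strand occurred in 10 of 46 (21.7%) against 16.3% of all promoters. A pair of these half-sites in the same direction, 5 bases apart, as in a retinoic acid element, was in 0 of the 46 and in 3 of all promoters (0.00913%).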

How the data were processed

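RNA from 6 mice was measured on 1-colour arrays. Per the file headers, Agilent Feature Extraction 10.7.1.1 gave each spot's fluorescence intensity and a background-subtracted processed signal, with probes placed on mm9. The authors also deposited a log2 table; each column equals the log2 processed signal plus a constant (-8.54 to -7.88) within 0.001 for 100% of 39399 probes, its column medians lie between -3.88 and -3.56, and its direction is that of the signal, while how the constant was set is not given in the sources used here.

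The 75th percentile of the log2 processed signal, taken over all spots except controls, was subtracted from each array. The 98 to 144 outlier spots per array were then dropped (0 spots were saturated). The lowest signal called above background was 10.1 to 11.6 units before scaling. The probe with the highest mean signal stood for a gene. Genes above background on at least 3 arrays were tested with limma 3.58.1 (R 4.3.3), genotype with age as a factor, so that the arrays of an age form a pair; Benjamini-Hochberg adjustment ran over all 17860 genes. The scripts were tested on simulated data. A probe not above background on 1 of the arrays compared gave a bound. Each group had 1 mouse per age, so p-values measure the spread between these mice, across ages.

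Genes were named in full if at least 4-fold apart at any age, at least 2-fold on average in 1 direction at all 3 ages, past a test, or on a short list; 2 kept members whose names carry a further letter were included. From other lists, up to 4 genes of large difference were named. The members, their classes and all lists were chosen with earlier results of these data known. Squamous, pancreatic, smooth muscle, intestinal, adipocyte and macrophage markers were also read: their median log2 differences over ages were -0.13, -2.30, 0.19, -0.22, -0.02 and 0.14, and that of 9 chief cell genes -1.11. The squamous and pancreatic medians hide single arrays, given in the report. The smooth muscle median hides differences of opposite sign: 2.19 at 5 weeks, 0.48 at 10 weeks and -2.53 at 50 weeks. The intestinal median was -0.39, 0.35 and -1.27 at the same ages. Alternatives were median, quantile and spike-in scaling, normexp, the deposited table, other filters and probe rules, and leaving out arrays.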

Additional observations from a re-analysis of the deposited data

How the results depend on the processing

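With 0 members past the limma threshold for genotype, normexp background correction gave 2 (Cyp2s1, -1.01, and Cyp4f18, -0.88). At least 2-fold lower at 5 weeks were 4 members, but 2 with median scaling, 2 with quantile normalization, 1 with normexp and 0 at 4-fold; at 10 weeks 13, but 7 with normexp and 4 at 4-fold; at 50 weeks 8, but 3 with median scaling, 2 with normexp and 2 at 4-fold. The 1 member at least 2-fold higher became 0 with normexp at each age, 0 on averaging the probes of each gene at 5 weeks, and 0 at 4-fold at 5 and 50 weeks. The liver-type median of -0.57 was -1.32 with no filter on dim probes, which adds dim genes, and ran from -0.89 to -0.42 as arrays were left out; the mucosal median of -0.25 was -0.12 with median scaling. Cyp2c65 turned from -0.11 to 0.0207 with median scaling and ran from -0.305 to 0.0224 as arrays were left out, the sign turning without either array of 5 weeks; the cause was not tested. Since age was a term, leaving out 1 array equals leaving out both arrays of its age. Another 120 values of group results and 310 of named genes kept their direction and their side of the threshold, or stayed within their margin. No paired analysis by replicate number was possible because the labels carry no replicate numbers; age formed the pairs. Signals near 10 units, as for Cyp26b1 and Cyp4b1, lie at the limit set by background.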
